A study of Mus musculus with 7 samples.

Results

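The group described here holds 10 genes of 25033 listed in each count file: the 3 genes that encode complement protein C1q (*C1qa*, *C1qb* and *C1qc*), the complement receptor gene *C3ar1*, the adhesion and lectin receptor genes *Vcam1* and *Mrc1*, the TAM receptor genes *Axl* and *Mertk*, and the heme and iron recycling genes *Hmox1* and *Slc40a1*. The 10 genes were chosen on measured values: *C1qa* and *C1qc* stood out as lower in *HRP-2* knockout mice in an earlier look at these same counts, and the other genes were added as genes of resident macrophages. Their difference between genotypes is therefore given as a description, with no p-value for any of them, and the numbers of them that passed the test over all genes stand later beside the share of all genes that did. All 10 were found in column 1 of every file and all 10 passed the filter on low counts, among 11265 genes that did. The question asked of them is whether the C1q genes and the other resident macrophage genes were low in the same mice.

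RNA was taken from lin- bone marrow cells, which remain once cells with markers of mature lineages have been removed, of 3 *HRP-2* wild type mice and 4 *HRP-2* knockout mice. The knockout was systemic, from the tm1b (KOMP)Wtsi allele of Hdgfrp2 on C57BL/6N, and the mice were 6 to 8 weeks old. The libraries are labelled as biological replicates and each is taken here as 1 mouse. The labels give no sex. Libraries were 3′ end libraries with 1 fragment per transcript, so that levels in CPM (reads on a gene scaled to the size of the library with edgeR's TMM factors) do not grow with transcript length. Libraries held from 3525665 to 5605158 reads on genes, and 3 reads, taken as the floor, came to between 0.559 and 0.838 CPM, a limit that covers counting error only.

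The ribosomal RNA precursor *Rn45s* accounted for 4.94% to 20.6% of reads. The targeted gene, listed as *Hdgfl2*, had 228, 156 and 168 reads in wild type and 13, 3, 8 and 2 in knockout mice, as the labels have it. Knockout mouse 3 stood apart from the other 6: *Xist*, the RNA of the inactive X chromosome, was at 0.559 CPM there and between 228 and 302 CPM elsewhere, while the Y-linked gene *Ddx3y* was at 104 CPM there and at most 0.775 CPM elsewhere. The differences of the 10 genes are therefore also given without it, while the marker sums and the lists of other genes include it unless stated. No libraries of the same genotype agreed within sampling noise. Where the resident macrophages were checked by their markers, *Csf1r* (between 65.9 and 105 CPM), *Cd68*, *Adgre1* and *Cd163* were present in all 7 libraries, *Spic* was low, and *Siglec1*, the sialoadhesin gene, had at most 5 reads in any mouse and 0 in all knockout mice.

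C1q is the recognition unit of the classical complement pathway: it is built of A, B and C chains, binds antibody on its targets and also tags dying cells. Unlike most complement proteins, which come from the liver, it is made mainly by macrophages and dendritic cells. Resident macrophages of the bone marrow hold hematopoietic cells in place through adhesion molecules such as VCAM1, engulf dying cells and expelled nuclei through receptors such as MERTK and AXL, and return iron from heme to the developing red cells.

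The C1q genes lie side by side, which is why their upstream sequences are shown first. On GRCm38 they follow each other on the minus strand of chromosome 4, *C1qb* from 136880129 to 136886187, *C1qc* from 136889804 to 136893065 and *C1qa* from 136895917 to 136898803. The whole cluster spans 18675 bp, with gaps of 3616 bp and 2851 bp and 0 other annotated genes in them. The RefSeq promoter table on GRCm38.p6 matched 6 of the 10 genes by symbol (*C1qb*, *C1qc*, *C3ar1*, *Mrc1*, *Axl* and *Mertk*), while *C1qa*, *Vcam1*, *Hmox1* and *Slc40a1* are named only. For *C1qb* the 250 bases before its start, chr4:136886201-136886450, are given, and for *C1qc* the 99 bases, chr4:136893066-136893164, of that window that lie outside its annotated exons, both read 5′ to 3′ along the minus strand. Capitals mark GAGGAA, a core sequence bound by the myeloid factor PU.1 (TTCCTC on the other strand), and TGCTGA, a core sequence bound by MAF factors.
C1qb: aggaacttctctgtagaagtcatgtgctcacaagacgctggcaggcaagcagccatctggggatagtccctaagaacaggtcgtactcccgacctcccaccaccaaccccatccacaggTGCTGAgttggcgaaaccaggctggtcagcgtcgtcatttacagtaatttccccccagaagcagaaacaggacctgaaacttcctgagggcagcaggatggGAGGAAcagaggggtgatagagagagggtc
C1qc: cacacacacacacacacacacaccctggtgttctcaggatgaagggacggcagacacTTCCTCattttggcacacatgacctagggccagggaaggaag
Read on both strands over the 250 bases before the start, GAGGAA was in the windows of *C1qb*, *C1qc*, *Mrc1* and *Axl*, and it was in 23.3% of 32851 such windows of all promoters. TGCTGA was in the windows of *C1qb* and *C3ar1* and in 16.1% of all windows. The matches did not overlap each other, and *Mertk* held neither. A match describes letters in a window, and the factors' binding was not measured.

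*C1qa*, the A chain, was at 45.3, 48.0 and 39.5 CPM in wild type mice 1 to 3 and at 23.7, 29.2, 30.9 and 23.4 CPM in knockout mice 1 to 4. The genotypes did not overlap, with the highest knockout mouse at 30.9 and the lowest wild type mouse at 39.5 CPM. The means were 44.3 ± 4.37 CPM (SD, n = 3) and 26.8 ± 3.86 CPM (SD, n = 4), so that the log2 fold change was −0.72 with a standard error (SE) of 0.19. In reads these were 149 to 207 per wild type mouse and 94 to 166 per knockout mouse.

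*C1qc*, the C chain, had the widest gap among the C1q genes. Its level was 36.5, 34.9 and 31.5 CPM in wild type and 18.6, 16.6, 16.0 and 17.4 CPM in knockout mice, so that all knockout mice lay close together and far below the wild type mice. The means were 34.3 ± 2.55 CPM (SD, n = 3) and 17.2 ± 1.12 CPM (SD, n = 4), so that the log2 fold change was −1.001 (SE 0.20) and the knockout level 49.97% of that in wild type. Among knockout mice *C1qc* varied with a coefficient of variation of 6.53%, where the counting of its 70 to 96 reads alone gives 11.0%.

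*C1qb*, the B chain, was the least abundant of the C1q genes and showed the least clear gap. It was at 19.0, 21.2 and 23.3 CPM in wild type and at 11.6, 16.8, 19.0 and 10.7 CPM in knockout mice. Knockout mice 1 and 4 were far below all wild type mice, while knockout mouse 3, at 19.01 CPM, all but met wild type mouse 1, at 19.04 CPM. The means were 21.2 ± 2.14 CPM (SD, n = 3) and 14.5 ± 4.02 CPM (SD, n = 4), so that the log2 fold change was −0.54 (SE 0.26). With DESeq2-type size factors in place of TMM the same mice stood at 19.09 and 19.02 CPM, so that the genotypes then overlapped. The spread among knockout mice, 27.6%, was wider than the 11.8% that counting gives.

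Taken as a sum, the C1q genes stood at 101, 104 and 94.4 CPM in wild type and at 53.9, 62.6, 66.0 and 51.5 CPM in knockout mice. Its mean was 99.8 ± 5.001 CPM (SD, n = 3) in the former and 58.5 ± 6.92 CPM (SD, n = 4) in the latter, 58.6% of the wild type level. Expressed as a log2 ratio of means this was −0.77, and it lay between −0.83 (without knockout mouse 3) and −0.71 (without knockout mouse 4) when each mouse was left out in turn.

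Within each mouse the C1q reads were split among the subunits in similar but not identical shares. *C1qa* took 44.3% ± 2.19 (SD, n = 3) of the C1q reads in wild type mice, next to 45.7% ± 1.39 (SD, n = 4) in knockout mice. *C1qb* took 21.3% ± 3.04 (SD, n = 3) and 24.5% ± 3.93 (SD, n = 4). *C1qc* took 34.4% ± 1.59 (SD, n = 3) and 29.8% ± 5.16 (SD, n = 4), and here the knockout mice fell into unlike values. Its share was 34.5% and 33.8% in knockout mice 1 and 4, next to 33.4% to 36.2% in wild type mice, but 26.5% in knockout mouse 2 (95% Wilson interval 21.8 to 31.7%) and 24.3% in knockout mouse 3 (20.1 to 29.0%). Those intervals cover counting error only.

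**Figure D1:**
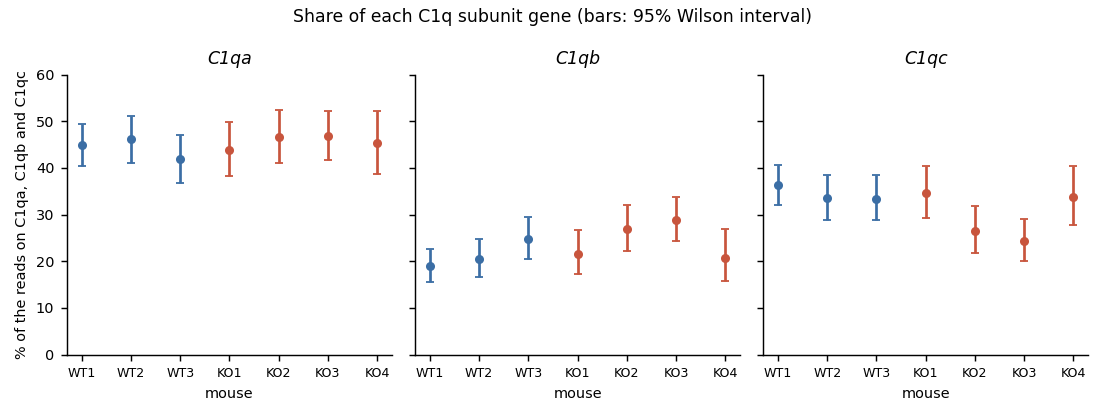
Share of the reads on *C1qa*, *C1qb* and *C1qc* taken by each gene (percent, vertical axis) in each of the 7 mice (horizontal axis; WT wild type, KO knockout), with bars for the 95% Wilson interval. The share of *C1qa* lies between 41.9% and 46.9% in all mice, and that of *C1qc* is lowest in knockout mice 2 and 3, at 26.5% and 24.3%.

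*C3ar1*, the receptor gene for the complement fragment C3a (chromosome 6 from 122847138 to 122856161), was the least abundant of the 10 genes and had the largest log2 fold change. Its level was 3.28, 10.9 and 6.63 CPM in wild type and 1.94, 0, 2.98 and 0.994 CPM in knockout mice, from 15, 39 and 25 and from 10, 0, 16 and 4 reads. No knockout mouse reached the lowest wild type mouse, though wild type mouse 1 and knockout mouse 3 were near each other, and 0 reads in knockout mouse 2 allow up to 0.622 CPM. The means were 6.93 ± 3.81 CPM (SD, n = 3) and 1.48 ± 1.28 CPM (SD, n = 4), with a log2 fold change of −2.17 (SE 0.70) that ranged from −2.76 to −1.69 as single mice were left out.

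*Vcam1* encodes the adhesion molecule that holds hematopoietic cells through integrins, and it was the most abundant of the 10 genes (chromosome 3 from 116109949 to 116129688). It was at 163, 226 and 174 CPM in wild type and at 125, 152, 162 and 154 CPM in knockout mice. Wild type mouse 2 was far above the rest, and wild type mouse 1, at 162.8 CPM, was next to knockout mouse 3, at 162.2 CPM. The means were 188 ± 33.9 CPM (SD, n = 3) and 148 ± 16.3 CPM (SD, n = 4), so that the log2 fold change was −0.34 (SE 0.15) that became −0.18 without wild type mouse 2. With DESeq2-type size factors the genotypes overlapped. Exons of *Vcam1* overlap *Gm43109* on the opposite strand, and since the strand counted is not given in the sources used here, reads of both cannot be told apart.

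*Mrc1* encodes the mannose receptor CD206, an endocytic lectin (chromosome 2 from 14229392 to 14332057). It was at 21.2, 20.7 and 24.4 CPM in wild type and at 16.5, 15.1, 18.8 and 6.21 CPM in knockout mice. The genotypes did not overlap, and knockout mouse 4 was well below the other knockout mice. With means of 22.1 ± 2.0 CPM (SD, n = 3) and 14.2 ± 5.51 CPM (SD, n = 4) the log2 fold change was −0.63 (SE 0.30), and −0.39 without knockout mouse 4.

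The TAM receptors, tyrosine kinases that recognise phosphatidylserine on dying cells through the bridging ligands GAS6 and protein S, were unlike each other in the order of the mice. *Mertk* lies on chromosome 2 from 128698956 to 128802894 and *Axl* on chromosome 7 from 25757273 to 25788705. *Mertk* was at 10.1, 17.9 and 13.8 CPM in wild type and at 5.62, 9.12, 9.32 and 8.20 CPM in knockout mice, with no overlap and a gap of less than 1 CPM between wild type mouse 1 and knockout mouse 3. Its means were 13.9 ± 3.91 CPM (SD, n = 3) and 8.07 ± 1.70 CPM (SD, n = 4), so that the log2 fold change was −0.78 (SE 0.31).

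*Axl* was at 37.6, 24.3 and 43.7 CPM in wild type and at 27.3, 23.4, 14.9 and 19.6 CPM in knockout mice. Here the genotypes overlapped, since knockout mouse 1 was above wild type mouse 2. Knockout mouse 3, the highest of the knockout mice for most of the 10 genes, was the lowest for *Axl*. The means were 35.2 ± 9.94 CPM (SD, n = 3) and 21.3 ± 5.31 CPM (SD, n = 4), so that the log2 fold change was −0.73 (SE 0.24).

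Of the heme and iron recycling genes, *Hmox1* encodes heme oxygenase 1, which opens the heme ring and frees its iron (chromosome 8 from 75093621 to 75100589). It was at 9.19, 7.26 and 16.2 CPM in wild type and at 8.14, 5.597, 9.13 and 7.46 CPM in knockout mice. The genotypes overlapped, with 1 of 4 knockout mice below all wild type mice, and the difference rested on wild type mouse 3. The means were 10.9 ± 4.69 CPM (SD, n = 3) and 7.58 ± 1.49 CPM (SD, n = 4), and the log2 fold change of −0.52 (SE 0.35) became −0.12 without that mouse.

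*Slc40a1* encodes ferroportin, the channel through which iron leaves the cell (chromosome 1 from 45908068 to 45926523). It was at 48.4, 44.4 and 56.5 CPM in wild type and at 41.7, 37.1, 46.2 and 39.8 CPM in knockout mice, with 3 of 4 knockout mice below all wild type mice and knockout mouse 3 above wild type mouse 2. The means were 49.7 ± 6.14 CPM (SD, n = 3) and 41.2 ± 3.84 CPM (SD, n = 4). This was the smallest difference of the 10, a log2 fold change of −0.27 (SE 0.17) that became −0.17 without wild type mouse 3.

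**Figure D2:**
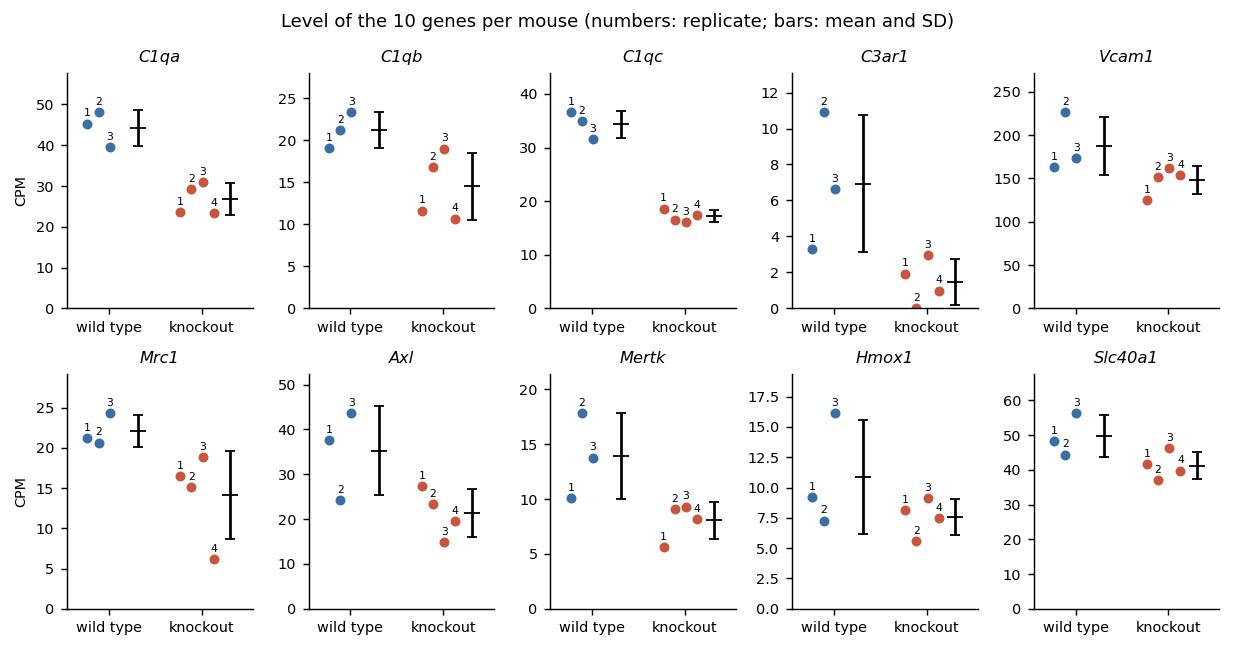
Level of each of the 10 genes in CPM (vertical axes, each from 0 and on its own scale) in wild type and knockout mice (horizontal axes), with the replicate number at each point and bars for the mean and SD. *C1qc* shows the cleanest separation, with all knockout mice between 16.0 and 18.6 CPM, while *Axl*, *Hmox1* and *Slc40a1* overlap between genotypes.

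In wild type mice the order of the mean levels was *Vcam1*, *Slc40a1*, *C1qa*, *Axl*, *C1qc*, *Mrc1*, *C1qb*, *Mertk*, *Hmox1* and *C3ar1*. *Vcam1* was above *Slc40a1* in every wild type mouse without overlap, and so were *C1qc* above *Mrc1* and *C1qb* above *Mertk*. All other neighbours in this order had overlapping values.

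Set side by side, all 10 genes had a lower mean in knockout mice, where 50.2% of all genes tested did. Their median log2 fold change was −0.68, and that of the 7 genes outside C1q was −0.63, against −0.0014 over all genes tested. Without knockout mouse 3 the median of the 10 was −0.75, and 8 of the 10 did not overlap, against 4.92% of the genes tested in that comparison. The log2 fold changes were then −0.80 for *C1qa*, −0.70 for *C1qb* and −0.97 for *C1qc*. Those of the 7 other genes were −2.76 for *C3ar1*, −0.39 for *Vcam1*, −0.79 for *Mrc1*, −0.58 for *Axl*, −0.86 for *Mertk*, −0.62 for *Hmox1* and −0.33 for *Slc40a1*. All 40 of the 40 values in knockout mice were below the wild type mean of the same gene, and every knockout mouse was below that mean for 13.2% of all genes tested. No overlap, with every knockout mouse below every wild type mouse, was found for 7 of the 10 genes against 2.79% of all genes tested, and for 5 of the 10 with DESeq2-type size factors, against 2.61% of all genes. When single mice were left out this count was between 7 and 10, the latter without wild type mouse 2, and the share of all genes tested was between 4.57% and 6.86%. As the genes were chosen on this contrast, these shares describe the choice as well as the mice.

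In edgeR's quasi-likelihood test over all genes, called at an adjusted p-value under 0.25, 0 of the 10 genes were called. It called 1 gene in each direction, *Hdgfl2* lower and *Tspoap1* higher, 0.00888% of the genes tested each way. Without adjustment, 7 of the 10 genes had a p-value under 0.05, against 2.07% of all genes tested that were lower and 1.56% that were higher. DESeq2 called 1 of the 10, *C1qc*, against 0.055% of its genes lower and 0.055% higher. Nothing is read from these counts, since the rule used the same contrast.

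**Figure D3:**
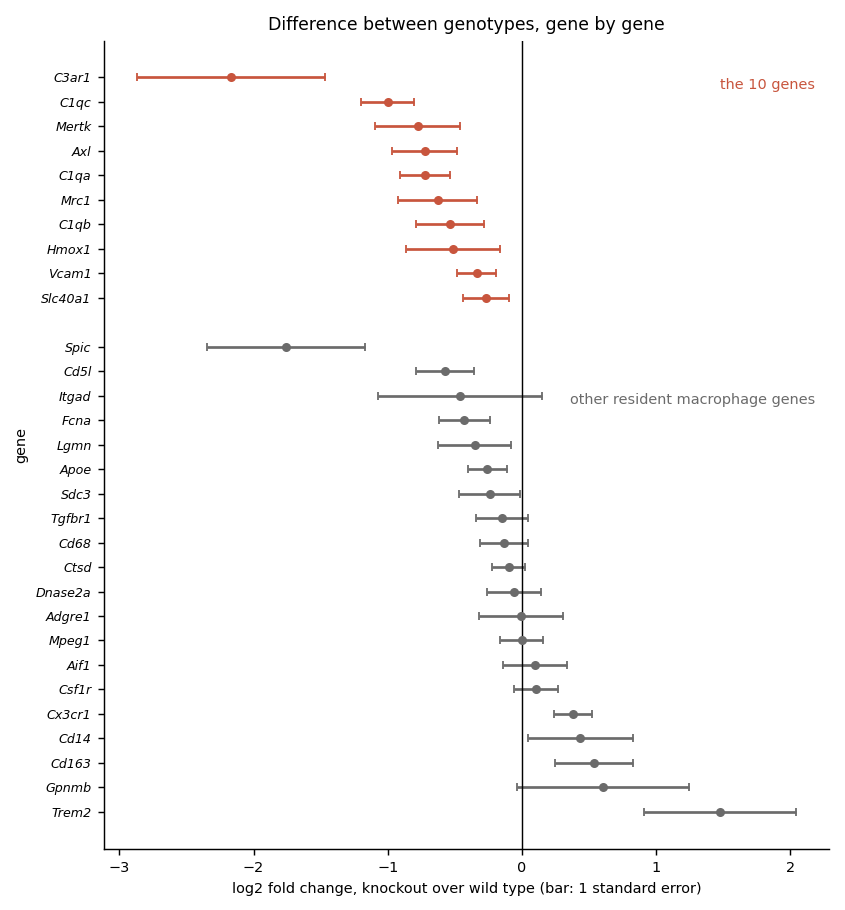
Log2 fold change of knockout over wild type (horizontal axis, with bars for 1 standard error) for the 10 genes and, in grey, for the 20 other resident macrophage genes tested (vertical axis). The 10 genes lie between −2.17 and −0.27, and the other resident macrophage genes lie on both sides of 0, from −1.76 to 1.47.

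Mouse by mouse, the level of the 10 genes was expressed as a percentage of the wild type mean of each gene. The median over the 10 genes was 93.0%, 101% and 105% in wild type mice 1 to 3 and 60.7%, 66.3%, 76.9% and 54.3% in knockout mice 1 to 4. For the summed C1q level alone the knockout mice stood at 54.0%, 62.7%, 66.1% and 51.5%, and the median of the 7 other genes was 74.6%, 66.5%, 83.99% and 59.0%. Knockout mouse 4 was thus lowest and knockout mouse 3 highest on both measures, while mice 1 and 2 changed places. Among wild type mice, mouse 3 went the other way from mice 1 and 2: the summed C1q level was 101%, 104% and 94.5% in mice 1 to 3 and the median of the other genes 86.8%, 93.6% and 110%, so that mouse 3 was lowest for C1q and highest for the others, while mouse 2 was above mouse 1 on both. Knockout mouse 3 was the highest knockout mouse for 8 of the 10 genes, the exceptions being *C1qc* and *Axl*, for which it was the lowest.

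**Figure D4:**
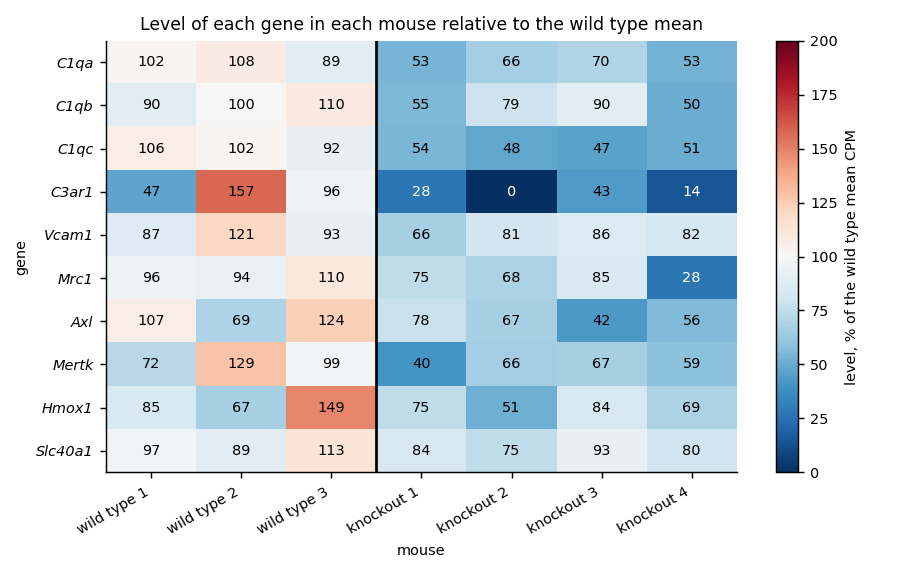
Level of each gene (rows) in each mouse (columns) as a percentage of the wild type mean CPM of that gene, with the colour scale from 0 to 200% and the black line between genotypes. All knockout squares are below 100%, while wild type squares range from 47% (*C3ar1*, mouse 1) to 157% (*C3ar1*, mouse 2).

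Likeness to C1q was measured as Pearson's r, over the 7 mice, between a gene's log2 CPM and the mean log2 CPM of the C1q genes. These 7 points share the genotype gap, which sets most of r, so that it is given as a description. *Mertk* ranked highest of the 7 other genes, with r = 0.84 and rank 95 of 11265. *Vcam1* (0.75, rank 265), *Mrc1* (0.75, rank 281), *C3ar1* (0.71, rank 400) and *Slc40a1* (0.70, rank 451) were also within the first 5% of genes, while *Axl* (0.59, rank 878) and *Hmox1* (0.45, rank 1714) were not.

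With the mean of each genotype subtracted, the pattern among mice of a genotype was less shared. The remaining r with C1q was 0.69 for *Mrc1*, 0.51 for *Mertk* and 0.45 for *Vcam1*, near 0 for *C3ar1* (0.0018) and *Slc40a1* (0.041), and −0.20 and −0.49 for *Hmox1* and *Axl*. Even among the C1q genes themselves it was 0.94 for *C1qa* and 0.91 for *C1qb*, which are part of the mean, but −0.48 for *C1qc*. The genes of at least 10 CPM most like C1q over the 7 mice were *Prelid3b*, *Slc18a2*, *Lrrk1*, *Hltf*, *Slc35e1*, *Ikbkg*, *Slc12a2* and *Jak3*, with r from 0.98 to 0.94. All of them had no overlap between genotypes, as had 2.79% of all genes tested. Picking genes by r with C1q, whose sum did not overlap either, favours such genes, so nothing is read from this. Their log2 fold changes ran from −0.11 (SE 0.14) for *Prelid3b* to −0.83 (SE 0.24) for *Slc12a2*, the gene of a sodium, potassium and chloride cotransporter.

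Genes of resident macrophages outside the 10 did not share one direction. Of 30 such genes, written down with earlier results of these data known, 20 passed the filter, 13 with a lower and 7 with a higher mean in knockout mice, and their median log2 fold change was −0.08, or −0.11 without knockout mouse 3. None was called by edgeR's quasi-likelihood test (smallest adjusted p = 0.999) or by DESeq2. At an unadjusted p-value under 0.05, 3 were lower (*Spic*, *Cd5l* and *Fcna*) and 2 higher (*Trem2* and *Cx3cr1*), against 2.07% and 1.56% of all genes tested. Of these, *Fcna* and *Trem2* are named after their values were seen.

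*Spic*, a transcription factor of iron-recycling macrophages, was at 6.78, 3.91 and 3.98 CPM in wild type and at 2.71, 0.622, 1.12 and 1.24 CPM in knockout mice, a log2 fold change of −1.76 (SE 0.59). *Cd5l*, which encodes a protein secreted by macrophages, was at 33.0 ± 2.88 CPM (SD, n = 3) and 22.2 ± 4.60 CPM (SD, n = 4). *Fcna*, the gene of the lectin ficolin A, was at 42.6 ± 7.02 and 31.6 ± 3.48 CPM (SD, n = 3 and 4). All 3 had every knockout mouse below every wild type mouse, as had 2.79% of all genes tested.

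Other genes of that list were on either side of 0. *Adgre1*, which encodes F4/80, differed by −0.01 on the log2 scale (SE 0.31), *Csf1r*, the receptor for the growth factor CSF1, of 0.10 (SE 0.17), *Cd68* of −0.13 (SE 0.18), *Mpeg1* of −0.0026 (SE 0.16) and *Ctsd*, the lysosomal protease cathepsin D, of −0.10 (SE 0.12). For *Apoe*, *Lgmn* and *Sdc3*, which fall outside the naming rule, the values were −0.26 (SE 0.14), −0.35 (SE 0.27) and −0.24 (SE 0.23). *Cd163*, the scavenger receptor gene for haptoglobin-bound hemoglobin, was at 11.5 ± 2.24 and 16.6 ± 5.01 CPM (SD, n = 3 and 4), with overlap. *Trem2*, a lipid receptor gene, had a log2 fold change of 1.47 (SE 0.57) from at most 48 reads in a mouse. The chemokine receptor gene *Cx3cr1* was at 137 ± 16.6 CPM (SD, n = 3) and 178 ± 20.9 CPM (SD, n = 4), every knockout mouse above every wild type mouse. The summed level of the 7 resident macrophage markers was 137 to 194 CPM in wild type and 168 to 183 CPM in knockout mice. Most of that sum was *Csf1r*, at means of 88.2 and 94.9 CPM, and *Cd68*, at 47.2 and 43.1 CPM. It therefore says little about the low markers, of which *Spic* (4.89 and 1.42 CPM) and *Cd163* went opposite ways. In these bulk libraries, fewer cells of a type and less RNA per cell cannot be told apart.

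Markers of other cells were summed in the same libraries. The 4 monocyte markers came to 1943 to 2008 CPM in wild type and 2098 to 2871 CPM in knockout mice, no knockout mouse as low as a wild type mouse. None of the 4 separated the genotypes alone: *Ly6c2*, most of the sum, was at 1277 CPM in knockout mouse 1 and 1299 CPM in wild type mouse 2, *F13a1* and *Ms4a6c* overlapped, and the mean of *Ccr2* was 138 CPM in wild type and 137 CPM in knockout mice. The whole list of 15 monocyte genes came to 3226 to 3464 and 3661 to 4517 CPM. The 4 endothelial markers came to 22.1 to 26.3 CPM and 16.1 to 19.4 CPM, all knockout mice below, but *Tie1*, 1 of the 4, had a higher mean in knockout mice (2.64 and 3.03 CPM). Summed over the whole list of 11 endothelial genes the genotypes overlapped, at 175 to 228 and 159 to 221 CPM, and 1 of the 8 genes tested, *Kdr*, had no overlap, against 2.79% of all genes tested. VCAM1 is also known on endothelial and stromal cells. The 4 stromal markers overlapped between genotypes but reached 536 CPM in knockout mouse 4, while the whole list of 14 stromal genes came to 236 to 323 CPM in wild type and 325 to 1258 CPM in knockout mice. The 4 erythroid markers overlapped (28.2 to 88.8 and 20.2 to 89.5 CPM; *Hbb-bs* was at 0 in all libraries), and so did the progenitor and mature lineage markers. The part of these shifts in the levels of the 10 genes was not tested.

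Among the other genes of the complement system, the direction was mixed. Of 33 genes, 15 were tested, 7 lower and 8 higher, with a median log2 fold change of 0.17 and 0 calls by edgeR's quasi-likelihood test or DESeq2 (smallest adjusted p = 0.811 from edgeR). Unadjusted p-values under 0.05 were found for 1 lower gene and 2 higher genes, against 2.07% and 1.56% of all genes tested. The median lay between 0.068 (without wild type mouse 1) and 0.32 (without wild type mouse 2). The lower gene was *Cd59a*, an inhibitor of the membrane attack complex, at 16.9 ± 2.64 CPM (SD, n = 3) and 7.87 ± 2.29 CPM (SD, n = 4) with no overlap. The higher ones were *C3*, the central complement protein, at 99.99 ± 20.6 and 152 ± 59.0 CPM (SD, n = 3 and 4), and *Cfp*, which encodes properdin, at 50.1 ± 5.28 and 66.0 ± 16.1 CPM (SD, n = 3 and 4). Both overlapped between genotypes and were highest in knockout mouse 3. Their log2 fold changes of 0.60 and 0.40 became 0.29 and 0.23 without it, neither of them then at an unadjusted p-value under 0.05.

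The receptors and partners of the C1q system went both ways. Of the C1q receptor genes 8 were tested, 6 lower and 2 higher, with a median log2 fold change of −0.05, a range from −0.42 (*Scarf1*, SE 0.45) to 0.31 (*Lrp1*, SE 0.26) and 0 at an unadjusted p-value under 0.05. *C1qbp*, which encodes the C1q binding protein, was at 153 ± 4.98 and 152 ± 10.6 CPM (SD, n = 3 and 4), and *Calr*, the calreticulin gene, at 1243 ± 284 and 1260 ± 145 CPM. Of the genes that share the C1q domain but not its function, 7 were tested, 4 lower and 3 higher, with a median of −0.04 and the highest value at 0.92 (*Adipoq*, SE 0.80). Of the integrin genes whose products bind VCAM1, *Itga4* was at 117 ± 18.2 and 108 ± 5.73 CPM and *Itgb7* at 179 ± 10.7 and 204 ± 20.3 CPM (SD, n = 3 and 4).

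TAM ligands, engulfment genes and iron genes gave medians near 0. Of the TAM receptor and efferocytosis genes 22 were tested, 8 lower and 14 higher, with a median log2 fold change of 0.10. That median lay between 0.049 (without knockout mouse 4) and 0.12 (without wild type mouse 1). *Stab2*, a phosphatidylserine receptor also of endothelial cells, was the 1 gene of this list at an unadjusted p-value under 0.05, against 2.07% of all genes tested that were lower. It was at 4.38, 5.31 and 5.57 CPM in wild type and 2.71, 0, 3.17 and 0.746 CPM in knockout mice. Of the heme and iron recycling genes 22 were tested, 9 lower and 13 higher, with a median of 0.04. It lay between 0.014 (without knockout mouse 2) and 0.16 (without wild type mouse 2). *Fth1*, the ferritin heavy chain gene, was at 1035 ± 203 and 1045 ± 241 CPM (SD, n = 3 and 4), and *Hp*, the haptoglobin gene, was at 82.3 ± 11.6 and 107 ± 16.5 CPM. *Hp* was the 1 gene of its list at an unadjusted p-value under 0.05, against 1.56% of all genes tested that were higher.

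Transcription factors of macrophages had a median log2 fold change of 0.05 over 16 genes tested, 7 lower and 9 higher. *Spi1*, which encodes PU.1, was at 149 ± 4.41 CPM (SD, n = 3) and 167 ± 5.71 CPM (SD, n = 4), every knockout mouse above every wild type mouse. *Nr1h3*, which encodes the oxysterol receptor LXRα, was at 4.38, 2.23 and 6.63 CPM in wild type and 0.194, 1.87, 2.80 and 0.994 CPM in knockout mice, with overlap. It was the 1 gene of this list at an unadjusted p-value under 0.05, against 2.07% of all genes tested that were lower.

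Other cell types were read from lists of the same kind. The monocyte genes had a median log2 fold change of 0.17 over 12 genes tested, 5 lower and 7 higher, and this became 0.099 without wild type mouse 2. An unadjusted p-value under 0.05 came with 3 higher genes and 0 lower genes, against 1.56% and 2.07% of all genes tested. These were *Fn1*, *Klf4* and *Ly6c2*, of which *Fn1*, the fibronectin gene, went from 67.4 ± 19.3 to 135 ± 46.1 CPM (SD, n = 3 and 4) and was called by DESeq2 (adjusted p = 0.0712 from its model across all genes) but not by edgeR (adjusted p = 0.839). Medians were −0.25 for 8 endothelial genes, −0.38 for 13 erythroid genes, 0.02 for 14 dendritic cell genes, −0.10 for 15 progenitor genes, 0.04 for 16 mature lineage genes and 1.92 for 6 stromal genes. In the stromal list the collagen genes *Col1a1* and *Col1a2* and *Sparc* were high in knockout mouse 4, and the median of 1.92 became 0.19 without that mouse and 0.88 without wild type mouse 3. Without single mice, medians changed sign for the C1q domain family (−0.18 to 0.094), the macrophage transcription factors (−0.013 to 0.14), the dendritic cell genes (−0.11 to 0.16) and the mature lineage genes (−0.053 to 0.16). So did that of the VCAM1 ligand integrins (−0.0016 to 0.080), with 2 genes tested. The erythroid median lay between −0.78 (without knockout mouse 4) and −0.15 (without wild type mouse 2). The progenitor median lay between −0.14 (without wild type mouse 2) and −0.015 (without knockout mouse 1). Of the genes of these lists at an unadjusted p-value under 0.05, *Cd59a* and *Fn1* were under it whichever mouse was left out, and each of the others was not in at least 1 such fit. No gene of any list was called by edgeR.

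**Figure D5:**
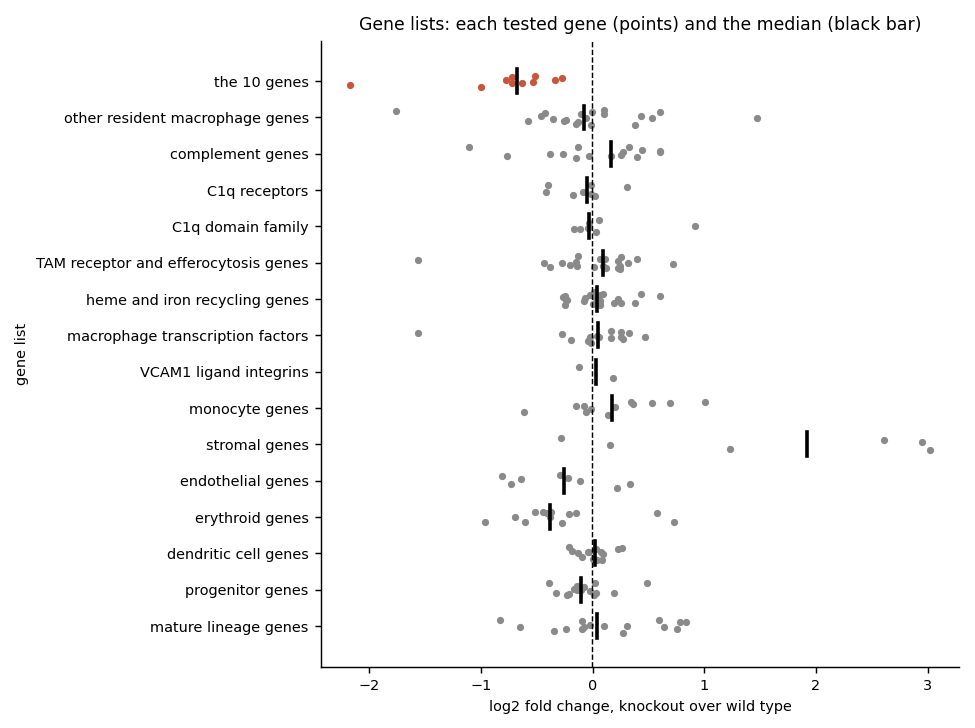
Log2 fold change of knockout over wild type (horizontal axis) of each tested gene in 16 lists (vertical axis), with a black bar for the median of a list and a dashed line for the median over all genes tested. The 10 genes, in red, have a median of −0.68, and the other resident macrophage genes one of −0.08.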

How the data were processed

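The paper describes 75 bp single reads of QuantSeq 3′ libraries made from 500 ng of RNA. By its account they were aligned to GRCm38 and genes of Ensembl version 84 were counted, both with STAR. The submitters' processing notes also name FastQC and DESeq2. Values deposited are raw counts of reads for each gene symbol and mouse. The strand counted is not given in the sources used here. From each file 5 tally rows were left out, of which reads on no gene came to 27.0 to 31.6% of the reads.

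The 10 genes and all gene lists were chosen with earlier results of these data known. The motif search, the C1q subunit shares, the counting error and the summaries per mouse were chosen after the values had been seen. Counts of 3 wild type and 4 knockout mice were fitted in edgeR 4.0.16 (R 4.3.3) with TMM factors, filterByExpr and the robust quasi-likelihood test, with genotype as the only term and Benjamini-Hochberg adjustment over 11265 genes. Genes were called at an adjusted p-value under 0.25, the threshold of the study, and both genes called were also under 0.05. Standard errors are the size of the log2 fold change divided by the square root of F. Likeness used log2 CPM with a prior count of 2. The script was tested on simulated counts. DESeq2 1.42.0 was an alternative, beside other scalings, other filters, a replicate block and the omission of each mouse, which was extended to the other lists and to the shares of all genes without overlap after the data had been seen. Named were the 10 genes, the genes called, *Rn45s*, and from each list the 3 genes of highest level and the 3 of smallest p-value, of which not all are printed. The cell type markers are named besides, as are *Fcna*, *Trem2*, *Apoe*, *Lgmn*, *Sdc3*, *Xist* and *Ddx3y*, chosen after their values were seen, and the genes most like C1q. Positions come from GENCODE M21 (GRCm38). The p-values set the difference between genotypes against the spread between mice of a genotype, estimated with information shared over genes.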

Additional observations from a re-analysis of the deposited data

Results flagged for a closer look

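Among 100 sets of 4 knockout values checked with Dixon's criterion (the gap to the nearest value against the whole range, at the 95% level), 7 held a mouse far from the others, where chance gives about 1 in 20, or 5. None of the 10 genes of the C1q and resident macrophage group was among them. *Cd5l* was at 15.3 CPM in knockout mouse 1 and between 23.9 and 25.1 CPM in the other knockout mice. *C3* was at 239 CPM in knockout mouse 3 and between 111 and 131 CPM in the others, and *Ikbkg* was at 23.3 CPM in knockout mouse 3 and between 20.6 and 20.9 CPM in the others. Knockout mouse 4 held the remaining 4: *Col1a1* at 517 CPM (others 9.51 to 34.8), *Col1a2* at 302 CPM (others 13.05 to 22.0), *Sparc* at 146 CPM (others 10.8 to 14.1) and *Cd8a* at 15.4 CPM (others 22.3 to 23.2). In the same mouse *Mrc1* and the summed C1q level were the lowest of the knockout mice.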

How the results depend on the processing

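Over 14 alternative fits, 139 log2 fold changes of the 10 genes were recomputed and 139 were negative. The median of the 10 ranged from −0.75 (without knockout mouse 3) to −0.55 (without wild type mouse 3), that of the other resident macrophage genes from −0.13 to −0.065, and the log2 ratio of the summed C1q level from −0.83 to −0.71. The number of genes called over all genes, 2, became 41 with no filter on low counts, 1 with at least 10 counts in every mouse and 18 with DESeq2. That DESeq2 count used independent filtering at 0.25, a level set after the count at its default level of 0.1, which was 16, had been seen. When each mouse was left out in turn 2 to 7 genes were called, with 7 without wild type mouse 1 and 4 without knockout mouse 1. The cause of these shifts was not tested. The median rank of the other 7 genes by likeness to C1q, 3.55% of genes, rose to 6.82% without wild type mouse 3, 6.22% without knockout mouse 1 and 7.06% without knockout mouse 4.

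Replicate numbers did not pair the mice: the deviations of same-numbered mice from their genotype's mean correlated at −0.023, −0.19 and −0.14. With the number as a replicate block, in which knockout mouse 4 has no partner and adds nothing, 1 gene was called, *Hdgfl2*, and the median log2 fold change of the 10 genes was −0.57. Read numbers were low for several named genes, with 0 to 39 reads per mouse for *C3ar1*, 26 to 61 for *Hmox1* and 29 to 64 for *Mertk*, and at most 48 in any mouse for *Trem2*, 31 for *Spic*, 25 for *Nr1h3* and 21 for *Stab2*. *Siglec1* did not pass the filter on low counts, so no difference in it was tested.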
